A study of Mus musculus with 44 samples.

Results

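Chemokines are small secreted proteins that steer the movement of leukocytes, and their receptors are G protein-coupled receptors on the cells that respond. The members described here are the protein-coding genes of the mouse annotation GENCODE M21 whose symbols carry the name of a CC, CXC, CX3C or XC chemokine, of a receptor for one of these classes, or of an atypical chemokine receptor (Ackr). The annotation holds 67 such genes, and 60 of them were found by their Ensembl identifiers among the 54446 genes of the count table. They comprise 37 ligands (23 CC, 12 CXC, 1 CX3C and 1 XC), 19 receptors (11 CC, 6 CXC, 1 CX3C and 1 XC) and 4 atypical receptors. Of the 60, 58 had at least 10 counts over the liver libraries and 57 had at least 10 over the brain libraries. Ccl21a reached this level in the liver only, and Ccl21b and Ccl27b reached it in neither tissue.

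The study fed male C57BL/6 mice a control diet (CD) or a ketogenic diet (KD), which is very low in carbohydrate and leads the liver to release ketone bodies, and asked how the diets act on age-related inflammation. RNA was sequenced from the liver of 8 mice on the one-year cyclic KD and 8 on CD, all 26 months old, and from the whole brain of 8 KD and 8 CD mice of 26 months and 7 KD and 5 CD mice of 12 months. By the methods of the study, the mice of 26 months on KD had alternated KD and CD by the week and were sampled in a CD week, and those of 12 months had one week of KD; the labels give only the diet, the age and the tissue. No mouse carried a genetic change or received a drug by the labels. The p-values below measure the spread between these mice, and the labels name no batch.

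Libraries held 6879726 to 12682087 counts in the liver and 7447742 to 12744415 in the brain, and the members made up 0.0794% to 0.458% of the counts of a liver and 0.0474% to 0.0963% of those of a brain. Levels are given as CPM, in which the counts of each library are scaled to the same total after TMM normalization. Hepatocyte markers summed to at least 18580 CPM in each liver and at most 59.6 CPM in each brain, and neuron markers summed to at most 32.5 CPM in each liver and at least 3154 CPM in each brain. Some libraries were high in Gm10800, a gene model rich in repeats: 5 KD livers (replicates 10, 11, 14, 15 and 16) and 1 CD liver (replicate 1), and 3 KD brains (replicates 12, 13 and 14) and 1 CD brain (replicate 5) of 26 months. In the brain its share of counts was 0.0551% to 1.22% in 26-month CD mice and 0.000462% to 0.00134% in 12-month CD mice. Olfactory, vomeronasal and taste receptor genes, which liver and brain are not known to use at a high level, averaged 0.232 CPM per kb of exon in KD livers and 0.0740 in CD livers, so a low level in these libraries is read against them.

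Inflammatory chemokines such as Ccl2, Ccl3 and Cxcl1 are switched on by cytokines and microbial products and draw in monocytes, neutrophils and other leukocytes, while homeostatic ones such as Cxcl12 and Cxcl13 are made without a stimulus and place cells within tissues. In the brain, neurons make Cx3cl1 (fractalkine), whose receptor Cx3cr1 marks microglia, the resident macrophages. In the liver, Kupffer cells, which are the resident macrophages, and infiltrating monocytes and neutrophils carry most of the inflammatory receptors.

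The sequences just before the start of transcription are shown for the 3 ligands that passed the test of aging in the brain (Ccl3, Ccl6 and Ccl9), for Ccl12, which lies on the same chromosome and had the smallest p of the members in the 26-month diet comparison, and for Cxcl12, whose diet groups did not overlap at 12 months. Each is the stretch of 250 bases before the RefSeq start on GRCm38.p6, written along the gene's strand: Ccl3 at chr11:83649379-83649628 (minus strand), Ccl6 at chr11:83593088-83593337 (minus), Ccl9 at chr11:83578637-83578886 (minus), Ccl12 at chr11:82101595-82101844 (plus) and Cxcl12 at chr6:117168285-117168534 (plus). Capitals mark matches on either strand to NF-kB, ETS, PU.1 or TATA box motifs.
Ccl3: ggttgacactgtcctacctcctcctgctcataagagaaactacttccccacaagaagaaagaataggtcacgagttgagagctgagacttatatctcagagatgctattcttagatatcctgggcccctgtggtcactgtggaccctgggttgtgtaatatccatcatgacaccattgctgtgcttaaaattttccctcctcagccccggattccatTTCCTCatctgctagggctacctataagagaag
Ccl6: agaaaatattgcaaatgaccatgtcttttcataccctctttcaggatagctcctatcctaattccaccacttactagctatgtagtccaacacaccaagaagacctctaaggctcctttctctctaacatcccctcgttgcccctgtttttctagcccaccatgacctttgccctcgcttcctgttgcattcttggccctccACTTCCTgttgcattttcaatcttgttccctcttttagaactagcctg
Ccl9: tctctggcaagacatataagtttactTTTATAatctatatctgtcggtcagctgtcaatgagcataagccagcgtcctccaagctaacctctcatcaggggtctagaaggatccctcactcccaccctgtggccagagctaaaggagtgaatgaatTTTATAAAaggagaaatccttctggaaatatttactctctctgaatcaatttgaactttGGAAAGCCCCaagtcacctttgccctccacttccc
Ccl12: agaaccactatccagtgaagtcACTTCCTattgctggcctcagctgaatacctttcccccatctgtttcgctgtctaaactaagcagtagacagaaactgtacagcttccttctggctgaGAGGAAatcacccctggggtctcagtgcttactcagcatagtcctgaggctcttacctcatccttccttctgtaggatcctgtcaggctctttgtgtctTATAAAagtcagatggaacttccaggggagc
Cxcl12: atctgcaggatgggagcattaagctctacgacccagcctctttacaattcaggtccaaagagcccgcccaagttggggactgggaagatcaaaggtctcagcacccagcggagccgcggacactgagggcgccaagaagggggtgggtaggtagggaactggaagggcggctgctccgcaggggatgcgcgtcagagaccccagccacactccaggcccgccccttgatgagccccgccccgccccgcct
Ccl3 held the PU.1 letters GAGGAA, Ccl6 the ETS letters AGGAAGT, Ccl9 an NF-kB match and TATAAA, and Ccl12 the ETS, PU.1 and TATA box letters, whereas none of these was found in Cxcl12. Ccl9 also held the AP-1 letters TGANTCA, left in lower case. The ETS and PU.1 motifs searched share the letters AGGAA. RefSeq windows were matched for 46 of the 60 members. NF-kB matches occurred in 10 of these 46 windows (21.7%) and in 7.01% of all 27025 windows of the same length, and the TATA box letters in 13 (28.3%) and 12.97% of all windows. The shares were 15.2% of members and 7.80% of all windows for AGGAAGT, 28.3% and 23.1% for GAGGAA, 8.70% and 6.87% for the AP-1 letters TGANTCA, and 6.52% and 3.04% for the interferon-stimulated response element. A match describes letters only, and many members are neighbouring copies: 14 lie on chromosome 11, 14 on chromosome 9 and 10 on chromosome 5.

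The chemokines that led the liver differed from those that led the brain. Levels between genes are compared per kb of exon, as the mean and SD over the libraries of a tissue. In the liver Cxcl13, which draws B cells through Cxcr5, led with 199.9 ± 430.3 CPM per kb, followed by Cxcl12, the ligand of Cxcr4 and Ackr3, with 73.8 ± 23.3 and Ccl6, a rodent CC chemokine for myeloid cells, with 45.6 ± 59.5. Ccl9, a close relative of Ccl6, had 25.6 ± 21.01 CPM per kb, Cxcl14, a chemokine of epithelia, 17.3 ± 27.9, Ccl24, an eosinophil attractant that binds Ccr3, 17.1 ± 27.4, Cxcl9, an interferon-induced ligand of Cxcr3, 16.8 ± 22.7, and Cxcl16, a membrane-bound ligand of Cxcr6, 11.9 ± 10.4. The SD exceeded the mean for Cxcl13, Ccl6, Cxcl14, Ccl24 and Cxcl9, and no neighbours in this order differed beyond their spread. The lead of Cxcl13 held over both diets together: in KD livers alone Cxcl12 averaged 80.9 CPM per kb and Cxcl13 48.6. In the brain Cx3cl1 led with 104.6 ± 32.6 CPM per kb, ahead of Cxcl14 with 36.2 ± 5.49 and Ackr1, which binds chemokines without signalling, with 24.1 ± 5.60. Ccl27a, a ligand of Ccr10 best known from skin, had 13.8 ± 2.73, Cx3cr1 9.40 ± 1.73, Cxcl12 7.16 ± 1.44, Ccl25, the ligand of Ccr9, 4.29 ± 0.451 and Ackr3, a scavenger of Cxcl12, 2.5 ± 0.373. Each step of this order in the brain exceeded the SD of either neighbour.

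The top 8 members of the liver held 75.0% of the summed CPM per kb of those described there, and the top 8 of the brain held 91.5%. In the liver 32 of 58 described members, and in the brain 16 of 57, stood at 10 or more times the mean of the olfactory, vomeronasal and taste receptor genes of that tissue. Below that mean lay 3 members of the liver (Ccl20, Cxcl3 and Cxcl15) and 17 in the brain, among them Cxcl1, Cxcl2, Cxcl9, Cxcr2, Cxcr3, Ccr3, Ccr4, Ccr7 and Ccr8. Some values are uncertain because genes share exons: 25.7% of the exon bases of Ackr1 lie within exons of Cadm3 on the same strand, a gene with 168670 counts, and 18.3% of those of Cxcl16 lie opposite Zmynd15. Ccl27a has a near-identical copy in Ccl27b, as has Ccl21a in Ccl21b. Ccl27b and Ccl21b held 0 counts in liver and brain, and how reads shared with them were counted is not known.

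**Figure D1:**
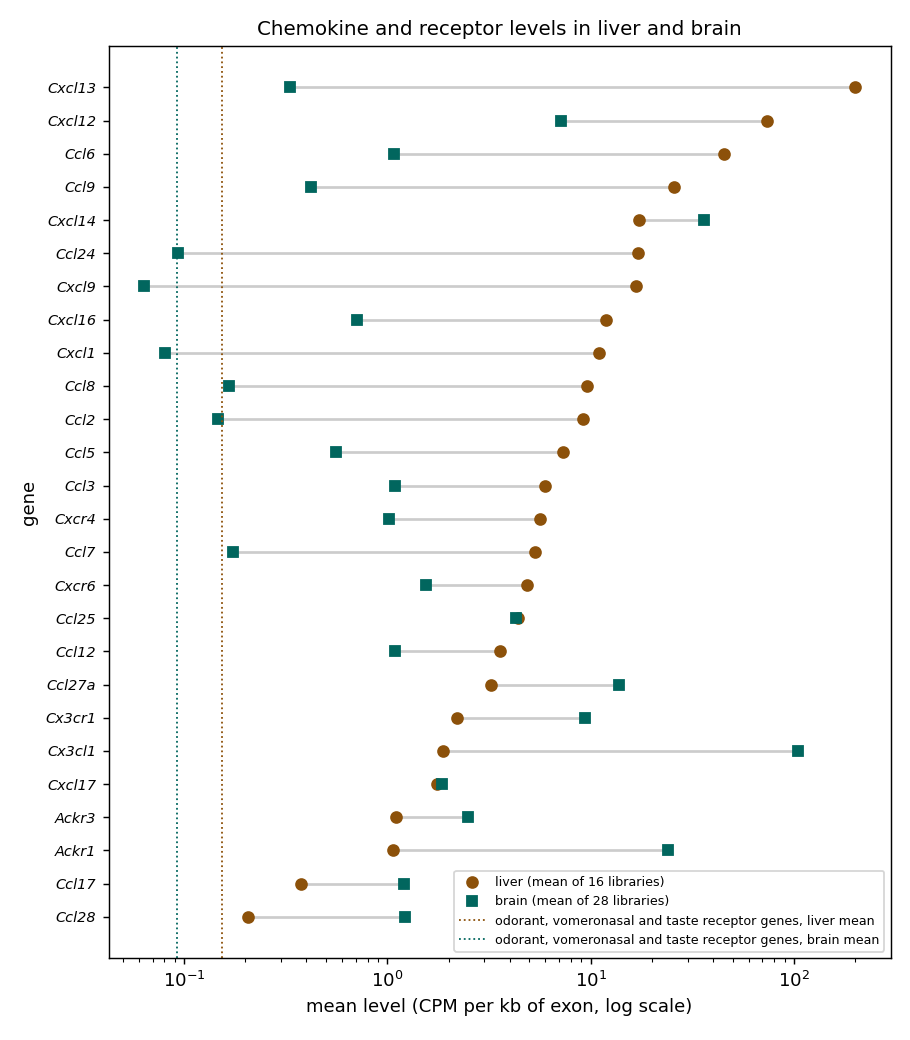
Mean CPM per kb of exon of 26 members (log scale), circles for liver and squares for brain, with the mean of the olfactory, vomeronasal and taste receptor genes of each tissue. Over all libraries of a tissue, Cxcl13 led the liver at 199.9 and Cx3cl1 the brain at 104.6, while Cxcl14 was high in both.

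Ligands and receptors known to bind each other were often at unlike levels. In the liver Cxcl12 had 568.2, 628.5 and 811.9 CPM (lowest, median and highest) in KD livers and 201.9, 578.2 and 833.1 CPM in CD livers. Its signalling receptor Cxcr4 had 2.40, 5.81 and 11.3 CPM in KD livers and 1.29, 5.61 and 46.6 CPM in CD livers, and Ackr3 had 2.09, 3.37 and 8.80 CPM in KD livers and 1.05, 2.87 and 6.73 CPM in CD livers. Cxcl12 was thus abundant in each liver, with 4 CD livers below the lowest KD liver. For the B cell pair, Cxcl13 had 1.63, 15.8 and 350.7 CPM in KD livers and 1.36, 102.2 and 1944 CPM in CD livers, while its receptor Cxcr5 had 1.47, 3.82 and 11.1 CPM in KD livers and 0.396, 2.07 and 9.57 CPM in CD livers. The medians of ligand and receptor therefore lay on opposite sides between the diets, within overlapping ranges. For the monocyte pair, Ccl2 had 0.979, 1.84 and 31.8 CPM in KD livers and 1.09, 8.44 and 43.4 CPM in CD livers, and its receptor Ccr2 had 6.04, 11.9 and 60.1 CPM in KD livers and 5.72, 29.4 and 121.8 CPM in CD livers. Both had lower medians in KD livers.

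Ligands of neutrophils and T cells had ranges that overlapped between the diets. Cxcl1 had 5.88, 9.05 and 72.0 CPM in KD livers and 11.3, 17 and 40.3 CPM in CD livers, and Cxcl2 had 0.163, 0.836 and 3.04 CPM in KD livers and 0.351, 2.07 and 9.10 CPM in CD livers; both bind Cxcr2, the main receptor of neutrophils. Of the T cell ligands of Cxcr3, Cxcl9 had 12.6, 20.6 and 113.2 CPM in KD livers and 8.57, 29.2 and 288.3 CPM in CD livers, and Cxcl10 had 3.10, 5.16 and 47.5 CPM in KD livers and 2.31, 11.4 and 25.5 CPM in CD livers. Cxcr3 itself had 1.14, 2.48 and 5.89 CPM in KD livers and 0.408, 4.27 and 13.5 CPM in CD livers. Each of these members had its lower median in KD livers. Cxcl16 had 13.9, 19.1 and 50.1 CPM in KD livers and 9.15, 26.6 and 129.3 CPM in CD livers, and its receptor Cxcr6 had 4.90, 8.32 and 11.4 CPM in KD livers and 6.40, 9.93 and 15.2 CPM in CD livers. Ccl5, a T cell product, had 1.47, 3.74 and 13.3 CPM in KD livers and 1.36, 7.85 and 22.2 CPM in CD livers. The lymphoid ligands Ccl19 and Ccl21a and the Ccr6 ligand Ccl20 stood at or below 1.2 CPM with libraries at 0, whereas their receptors had medians of 1.79 CPM in KD livers and 1.14 CPM in CD livers for Ccr7, and of 1.75 CPM in KD livers and 0.569 CPM in CD livers for Ccr6. Cx3cl1 had 3.74, 5.33 and 19.7 CPM in KD livers and 2.28, 3.01 and 16.9 CPM in CD livers, and Cx3cr1 had 3.03, 8.75 and 28.0 CPM in KD livers and 1.23, 5.91 and 25.1 CPM in CD livers.

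The first comparison asked whether the one-year cyclic KD changed the members in the liver at 26 months. No member passed the test: 0 of the 40 members tested rose and 0 fell at an adjusted p under 0.05 (edgeR's quasi-likelihood test with Benjamini-Hochberg adjustment), against 0% of the 18002 genes tested in either direction. The livers of the diets did not separate for any tested member, as for 0.0222% (higher) and 0.0444% (lower) of all genes that did. At an unadjusted p under 0.05, 2 members were higher (Ccl22 and Ackr1, against 7.04% of all genes) and 8 were lower (among them Ccl9, Cxcr2, Ccr1, Ccr3, Ccl24, Cxcl2 and Cxcl13, against 8.47%). DESeq2 called 0 of 51 members at an adjusted p under 0.05 and gave 4 higher and 13 lower at an unadjusted p under 0.05. It called 50 of 28266 genes higher and 49 lower. Over all genes, it gave 5449 higher and 2849 lower at an unadjusted p under 0.05. The median log2 fold change (KD over CD) was -0.49 over the 40 members and 0.04 over all genes, with -0.78 for the 21 ligands, -0.34 for the 15 receptors and 0.28 for the 4 atypical receptors. Above 0 were 14 of the 40 members and 55.8% of all genes. In whole tissue, fewer cells of a type and less RNA per cell cannot be told apart.

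The members with the smallest p were receptors and ligands of myeloid cells, and in each of them 2 to 4 CD livers stood above the highest KD liver. Ccl9 had 34.0, 46.8 and 62.5 CPM in KD livers and 39.2, 76.3 and 249.9 CPM in CD livers, a log2 fold change of -1.13 (SE 0.39) with an adjusted p of 0.29. CD replicates 3, 5, 6 and 7 lay above all KD livers. Cxcr2 had 0.420, 1.91 and 2.66 CPM in KD livers and 0.175, 3.95 and 55.3 CPM in CD livers, with a log2 fold change of -2.69 (SE 0.93) and an adjusted p of 0.29. The same 4 CD livers were the high ones, and the lowest values were also those of CD livers. Ccr1, a receptor of monocytes and neutrophils that binds Ccl3, Ccl6 and Ccl9, had 0.840, 1.54 and 6.46 CPM in KD livers and 0.0877, 2.58 and 92.4 CPM in CD livers, with a log2 fold change of -3.23 (SE 1.15) and an adjusted p of 0.29. Only CD replicates 3 and 6 exceeded the KD range. Ccr3, the eotaxin receptor of eosinophils, had 0.210, 1.11 and 14.1 CPM in KD livers and 0, 3.45 and 106.7 CPM in CD livers, with a log2 fold change of -3.47 (SE 1.26) and an adjusted p of 0.29. Here CD replicates 3, 5 and 8 were above all KD livers, so replicate 8 joined the high livers and replicates 6 and 7 did not. Its ligand Ccl24 had 0.420, 1.74 and 38.1 CPM in KD livers and 0.994, 30.8 and 127.6 CPM in CD livers, with a log2 fold change of -2.62 (SE 1.08) and an adjusted p of 0.30. KD replicate 12 alone held the 38.1 CPM, and the other KD livers stood at or below 2.02 CPM.

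**Figure D2:**
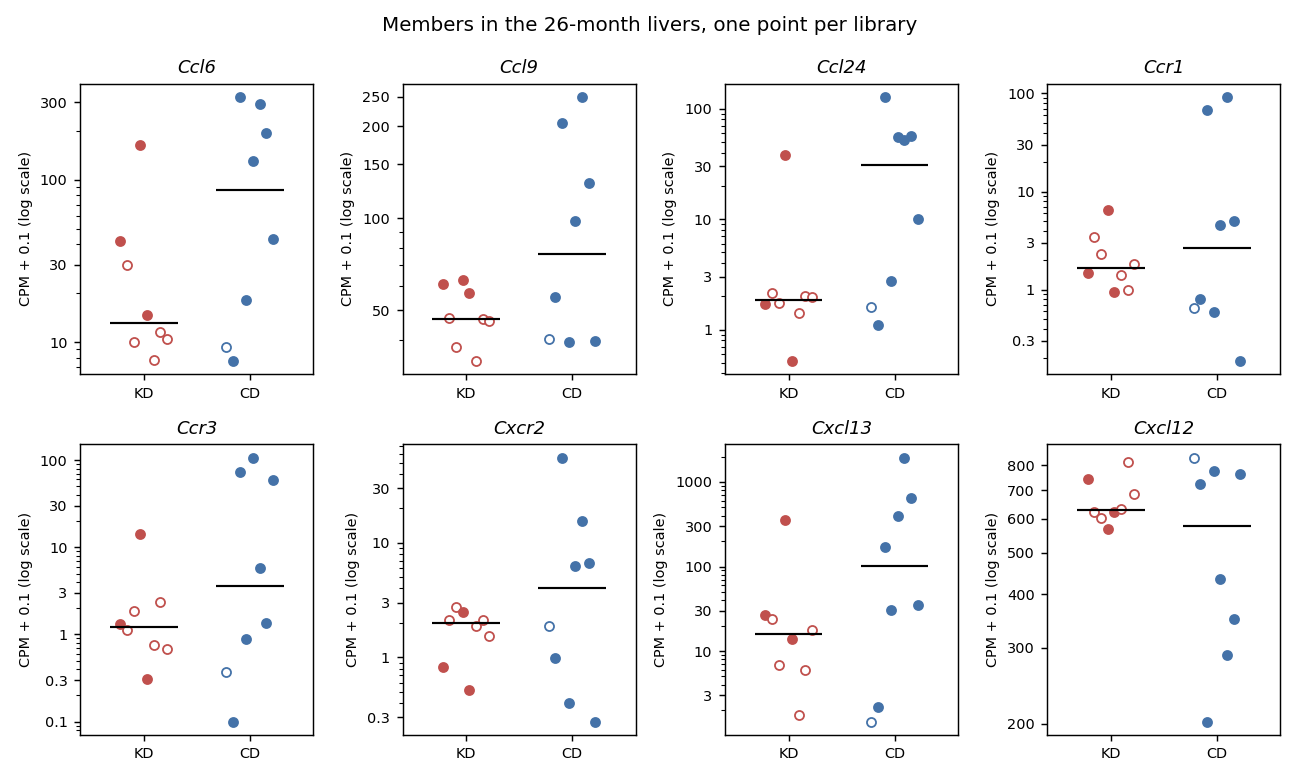
CPM plus 0.1 on a log scale for 8 members in the 26-month livers, one point per library with the group median as a line; open points are libraries high in Gm10800. Except for Cxcl12, the KD medians lie below the CD medians, and the highest CD liver stands at 249.9 CPM for Ccl9 and 1944 CPM for Cxcl13.

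Ccl6 showed the same livers: it had 7.67, 12.98 and 163.1 CPM in KD livers and 7.55, 86.7 and 323.8 CPM in CD livers, with CD replicates 3, 6 and 7 above the KD range. Cxcl12 showed them in reverse, since CD replicates 3, 5, 6 and 7 had 201.9, 433.4, 289.2 and 350.6 CPM and the other 12 livers 568.2 CPM or more. Ccl22, a ligand of Ccr4 made by dendritic cells, went the other way in a group of livers: it had 0.105, 1.90 and 3.54 CPM in KD livers and 0, 0.718 and 1.63 CPM in CD livers, with 5 KD livers above all CD livers, 3 of them high in Gm10800. Of the 40 tested members, 20 had CD replicate 3 among their 4 highest livers, 21 had replicate 5, 23 had replicate 6 and 19 had replicate 7, and 21 had KD replicate 12. These 4 CD livers and 1 KD liver thus held the high values of many members.

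**Figure D3:**
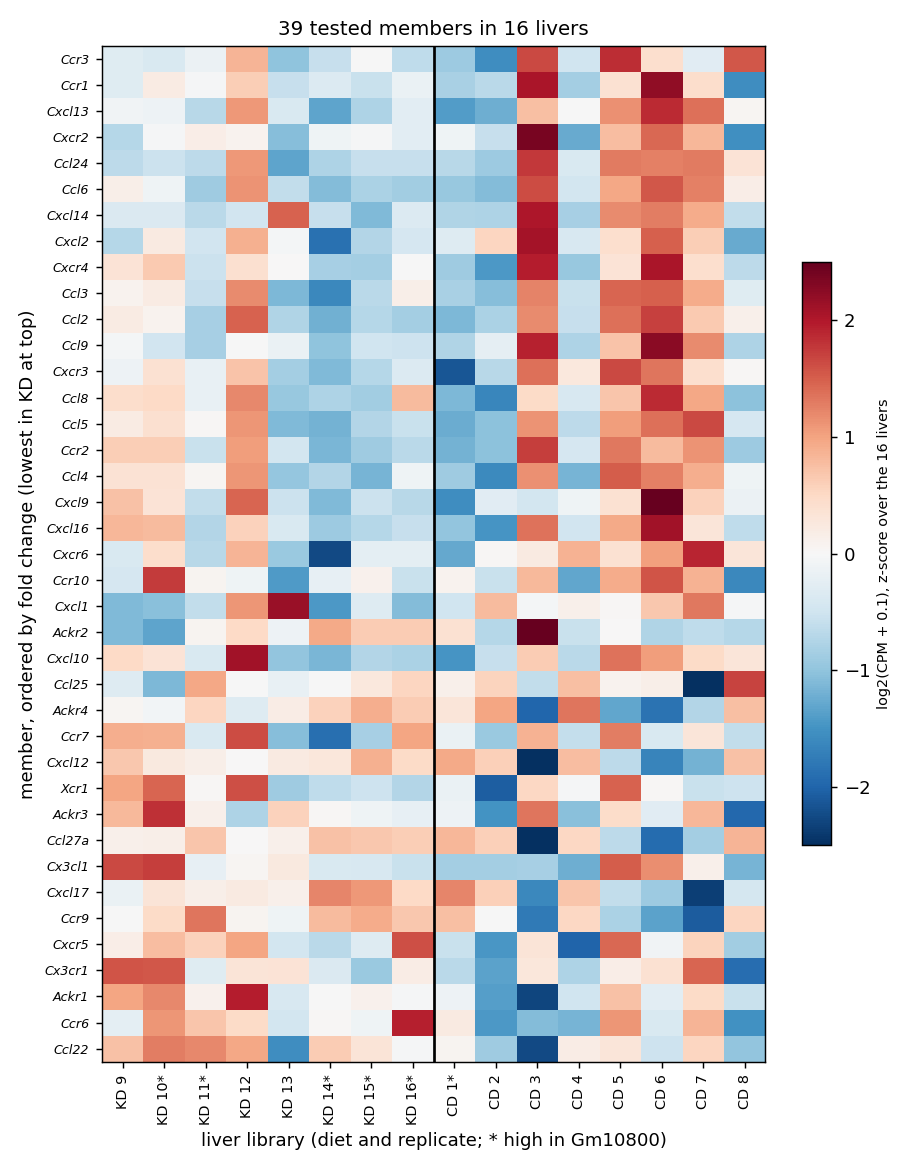
Tested members (39 of the 40) in each of the 16 livers as z-scores over the livers of the log2 of CPM plus 0.1, KD livers left of CD livers; an asterisk marks a library high in Gm10800. CD replicates 3, 5, 6 and 7 and KD replicate 12 are high in many ligands and receptors of myeloid cells.

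Markers of leukocytes varied with these livers, and their part in the result was not tested. Neutrophil markers (12 genes, among them S100a8 and Ly6g) summed to 20.2, 25.7 and 79.2 CPM (lowest, median and highest) in KD livers and 12.6, 110.0 and 1967 CPM in CD livers. All 7 of those tested were lower in KD at an unadjusted p under 0.05, as were 8.47% of all genes. Their median log2 fold change was -4.29, and 0 were called by edgeR at an adjusted p under 0.05. The sums were 1955 and 1967 CPM in CD replicates 3 and 6 and 199.3 and 246.0 CPM in replicates 5 and 7. In CD replicates 1, 2, 4 and 8 they were at most 20.8 CPM, so these genes share the same high livers. Kupffer cell markers (10 genes) summed to 435.7, 666.4 and 2062 CPM in KD livers and 391.1, 2385 and 4122 CPM in CD livers, and 8 of 10 were lower in KD at an unadjusted p under 0.05. Markers of monocytes and recruited macrophages (10 genes) summed to 120.2, 205.2 and 1067 CPM in KD livers and 95.7, 788.7 and 3014 CPM in CD livers. The KD maximum of the Kupffer cell list came from KD replicate 12. Markers of T and NK cells (12 genes) summed to 13.3, 48.9 and 103.6 CPM in KD livers and 22.6, 79.7 and 203.5 CPM in CD livers. Those of B and plasma cells (8 genes) summed to 72.0, 178.2 and 964.4 CPM in KD livers and 69.1, 124.6 and 543.2 CPM in CD livers. No gene of these lists was at 0 in either group of livers, and no member is on a marker list. Hepatocyte markers summed to 32952, 48857 and 55657 CPM in KD livers and 18580, 38813 and 55340 CPM in CD livers.

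Single libraries moved several of these values, although no member was called in any setting. Without KD replicate 12, 0 members were higher and 14 lower at an unadjusted p under 0.05, and the log2 fold change was -4.63 for Ccl24, -4.87 for Cxcl13 and -4.80 for Ccr3. Without CD replicate 3, that of Cxcr2 was -1.42 and 3 members were lower at an unadjusted p under 0.05. With the level of the receptor genes named above as a covariate, 1 member was higher and 0 were lower at an unadjusted p under 0.05, and without the libraries high in Gm10800 there were 0 and 0. Over all genes, 1268 were higher and 1524 lower in the main fit, 1741 and 2133 without KD replicate 12, and 1097 and 776 without CD replicate 3. They were 549 and 159 with the covariate and 408 and 188 without the libraries high in Gm10800. That last fit left out 5 of 8 KD livers and 1 of 8 CD livers, and it kept KD replicate 12. Neither it nor the covariate can therefore separate diet from the Gm10800 signal.

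In the brain the comparison of ages asked which members differed between CD mice of 26 and 12 months. Ccl3, Ccl9 and Ccl6, which attract monocytes and macrophages and lie in 1 cluster on chromosome 11, rose with age, and no member fell. They were 3 of the 24 members tested (edgeR, adjusted p under 0.05), where 1% of the 22079 genes tested rose and 0.258% fell. The median log2 fold change (26 over 12 months) was 0.08 over the 24 members and 0.00 over all genes, and 18 of the 24 members lay above 0, among them all 7 signalling receptors tested. Levels were low and rest on few reads.

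Ccl3, a ligand of Ccr1, had 0.548, 1.25 and 2.26 CPM (lowest, median and highest) in 26-month CD brains, against 0.732, 0.205, 0.262, 0.405 and 0.375 CPM in the 12-month CD brains, from 105 counts at 26 months and 22 counts at 12 months. Its log2 fold change was 1.60 (SE 0.38), with an adjusted p of 0.033 by edgeR. The highest 12-month brain lay above the lowest 26-month brain, so the groups overlapped. Ccl9 had 0.992, 1.69 and 2.08 CPM in 26-month CD brains, against 0.823, 1.02, 0.611, 0.973 and 0.750 CPM in 12-month CD brains, from 131 counts at 26 months and 46 counts at 12 months. Its log2 fold change was 0.88 (SE 0.22), with an adjusted p of 0.044 by edgeR. A single 12-month brain reached the 26-month range. Ccl6 had 1.26, 2.31 and 4.97 CPM in 26-month CD brains, against 1.37, 1.23, 0.698, 1.14 and 1.41 CPM in 12-month CD brains, from 226 counts at 26 months and 64 counts at 12 months. Its log2 fold change was 1.19 (SE 0.30), with an adjusted p of 0.045 by edgeR. Here 2 of the 5 brains of 12 months reached into the 26-month range.

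These 3 calls depended on the analysis. DESeq2 gave adjusted p-values of 0.0189 for Ccl3, 0.0198 for Ccl6 and 0.0596 for Ccl9. Fitting the compared groups alone gave 0.0967 for Ccl3, 0.198 for Ccl6 and 0.149 for Ccl9, and no filter on low counts gave 0.0613, 0.0763 and 0.0938 for Ccl3, Ccl6 and Ccl9. With the receptor genes as a covariate Ccl3 was called (adjusted p 0.0352), and Ccl6 (0.0564) and Ccl9 (0.136) were not, and without the libraries high in Gm10800 Ccl3 was called (0.0413), and Ccl6 (0.0670) and Ccl9 (0.0814) were not. Of the compared groups, that last fit left out only 26-month CD replicate 5. The 26-month CD brains it kept still held at least 0.0551% Gm10800, against at most 0.00134% at 12 months. It therefore cannot separate age from this signal. In 13 fits that each left out 1 brain, Ccl3 was called in 7, Ccl6 in 3 and Ccl9 in 3, with log2 fold changes of 1.42 to 1.93 for Ccl3, 0.99 to 1.29 for Ccl6 and 0.78 to 0.96 for Ccl9. Among these fits, all 3 calls held only without 26-month replicate 1 (0.0455 for Ccl3, 0.0291 for Ccl6 and 0.0227 for Ccl9). Ccl3 lost its call without 12-month replicate 4 (0.105), 7 (0.113), 13 (0.0715) or 16 (0.0855), or without 26-month replicate 3 (0.0520) or 4 (0.0594). Ccl6 lost it without 12-month replicate 1 (0.0793), 4 (0.0949), 7 (0.150), 13 (0.0919) or 16 (0.0817), or without 26-month replicate 3 (0.0568), 4 (0.0795), 5 (0.0571), 6 (0.0926) or 7 (0.0636). Ccl9 lost it without 12-month replicate 1 (0.105), 4 (0.0632), 7 (0.144), 13 (0.0650) or 16 (0.110), or without 26-month replicate 2 (0.0564), 4 (0.0756), 5 (0.0779), 6 (0.0791) or 8 (0.0713).

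**Figure D4:**
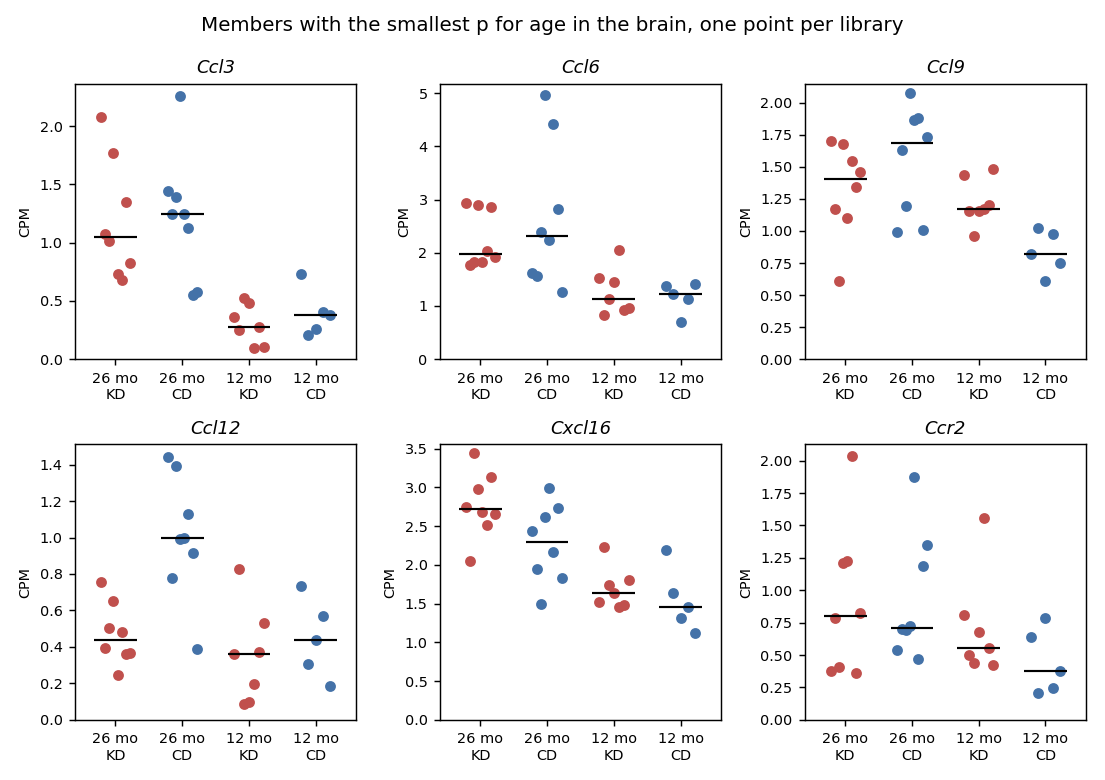
CPM in each brain for the 6 members with the smallest p-values of the aging comparison, in the groups 26-month KD, 26-month CD, 12-month KD and 12-month CD, one point per library with the group median as a line. Ccl3, Ccl6 and Ccl9 had medians of 1.25, 2.31 and 1.69 CPM in 26-month CD brains, above those of 12-month CD brains.

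Further members were higher at 26 months without passing the adjusted threshold. Ccl12, a rodent ligand of Ccr2, had 0.386, 0.996 and 1.44 CPM in 26-month CD brains, against 0.732, 0.307, 0.436, 0.568 and 0.188 CPM in 12-month CD brains (log2 fold change 1.13, SE 0.37, adjusted p 0.15 by edgeR). Cxcl16 had 1.49, 2.30 and 2.99 CPM in 26-month CD brains, against 2.20, 1.64, 1.31, 1.46 and 1.13 CPM in 12-month CD brains (0.55, SE 0.17, adjusted p 0.12). Ccr2, the receptor that marks inflammatory monocytes, had 0.471, 0.712 and 1.87 CPM in 26-month CD brains, against 0.640, 0.205, 0.786, 0.243 and 0.375 CPM in 12-month CD brains (1.01, SE 0.46, adjusted p 0.37). At an unadjusted p under 0.05 the count was 6 higher and 0 lower, where 7.81% of all genes were higher and 4.02% lower. In no member did the 2 ages separate, while 0.924% of all genes were higher in every 26-month CD brain than in any 12-month CD brain and 0.349% were lower.

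Some marker lists moved with age, and their part in the result was not tested. Markers of monocytes and recruited macrophages summed to 24.4, 27.8 and 45.6 CPM in 26-month CD brains and 14.6, 16.1 and 19.4 CPM in 12-month CD brains, without overlap, and Lyz2 rose among the 5 tested. Of the Kupffer cell list 2 genes were tested in the brain, and Adgre1, a marker of macrophages in general, rose. Microglia markers (8 genes) summed to 207.5, 227.5 and 290.3 CPM in 26-month CD brains and 194.4, 209.9 and 245.2 CPM in 12-month CD brains, and 0 of 8 were called. Neutrophil markers summed to 14.2, 17.9 and 34.2 CPM in 26-month CD brains and 9.78, 12.4 and 12.9 CPM in 12-month CD brains, also without overlap, with Ly6g at 0 in the 12-month CD brains, and Csf3r rose among the 3 tested. Of 6 astrocyte markers Gfap rose, and of 5 oligodendrocyte markers 0 were called and 4 were higher at an unadjusted p under 0.05. Markers of brain border macrophages (6 genes) summed to 12.0, 18.8 and 25.8 CPM in 26-month CD brains and 15.2, 16.6 and 22.7 CPM in 12-month CD brains. Meningeal fibroblast markers were lower, at 28.5, 40.6 and 56.6 CPM in 26-month CD brains and 67.2, 80.6 and 149.1 CPM in 12-month CD brains, and 5 of 7 fell. Over all genes, 1% rose and 0.258% fell. The receptor genes named above stood at 0.0512 to 0.272 CPM per kb in 26-month CD brains and 0.0511 to 0.0742 in 12-month CD brains.

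The one-year cyclic KD was then compared with CD in brains of 26 months, a comparison that shares its CD brains with that of the ages. No member passed: 0 of 24 rose and 0 fell (edgeR), as for 0% of all genes in either direction, and the diets separated in no tested member (0.00453% of all genes higher, 0% lower). At an unadjusted p under 0.05, 0 members were higher (1.52% of all genes) and 1 was lower (3%), which was Ccl12. DESeq2 also called 0 members. The median log2 fold change (KD over CD) was -0.04 over the 24 members and 0.00 over all genes, and 7 of 24 lay above 0.

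Of the 3 ligands that rose with age, Ccl3 had 0.678, 1.04 and 2.08 CPM in 26-month KD brains and 0.548, 1.25 and 2.26 CPM in 26-month CD brains, a log2 fold change of -0.04 (SE 0.29). Ccl6 had 1.76, 1.98 and 2.93 CPM in KD brains and 1.26, 2.31 and 4.97 CPM in CD brains (-0.23, SE 0.24), and Ccl9 had 0.607, 1.40 and 1.70 CPM in KD brains and 0.992, 1.69 and 2.08 CPM in CD brains (-0.21, SE 0.18). The ranges of the diets overlapped for all 3, and the KD range of Ccl6 lay within its CD range. Ccl12 had 0.244, 0.438 and 0.757 CPM in KD brains and 0.386, 0.996 and 1.44 CPM in CD brains, a log2 fold change of -1.06 (SE 0.32) with an adjusted p of 0.99. All but 1 of the CD brains lay above all KD brains. Its log2 fold change with age was 1.13, and both values rest on the same CD brains. Cxcl16 had 2.06, 2.72 and 3.44 CPM in KD brains and 1.49, 2.30 and 2.99 CPM in CD brains, with a log2 fold change of 0.29 (SE 0.14), above 0 as in the comparison of ages.

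Among ligands of epithelia and their receptors, Ccl28 had 3.23, 4.87 and 6.77 CPM in KD brains and 4.87, 5.99 and 8.30 CPM in CD brains (log2 fold change -0.35, SE 0.18), Ccl27a had 26.5, 34.5 and 46.1 CPM in KD brains and 20.2, 32.3 and 41.4 CPM in CD brains (0.20, SE 0.13), and Ccr9 had 2.02, 2.89 and 4.17 CPM in KD brains and 2.62, 3.52 and 3.82 CPM in CD brains (-0.21, SE 0.14). The adjusted p was 0.99 or more for each. For the pair of neurons and microglia the ranges also overlapped: Cx3cl1 had 152.5, 433.1 and 667.1 CPM in KD brains and 166.0, 386.2 and 567.6 CPM in CD brains, and Cx3cr1 had 29.6, 48.8 and 54.4 CPM in KD brains and 37.0, 44.2 and 54.4 CPM in CD brains. Cxcr4 had 0.932, 1.88 and 2.51 CPM in KD brains and 0.894, 1.89 and 2.70 CPM in CD brains, and Ackr3 had 7.22, 7.70 and 11.1 CPM in KD brains and 8.03, 8.49 and 9.70 CPM in CD brains.

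At 12 months, one week of KD was compared with CD. No member passed: 0 of 24 rose (0.00453% of all genes, a single gene) and 0 fell (0%) by edgeR, with 2 higher (1.49% of all genes) and 0 lower (1.16%) at an unadjusted p under 0.05; DESeq2 called 0 members. The median log2 fold change (KD over CD) was 0.01 over the 24 members and 0.00 over all genes, with 12 members above 0. Cxcl12 stood apart: it had 64.9, 75.5 and 84.8 CPM in 12-month KD brains, against 45.9, 38.3, 57.4, 58.0 and 62.7 CPM in the 12-month CD brains. Every KD brain of this age thus lay above every CD brain, which no other tested member showed and which 0.149% of all genes showed in this direction (0.113% in the other). The log2 fold change was 0.50 (SE 0.11) and the adjusted p over all genes was 1, with 0.30 to 1 over 21 alternatives and log2 fold changes of 0.41 to 0.58. Ccl9 had 0.960, 1.17 and 1.48 CPM in KD brains, against 0.823, 1.02, 0.611, 0.973 and 0.750 CPM in CD brains (log2 fold change 0.54, SE 0.23). The remaining members named by p had log2 fold changes of 0.63 (SE 0.48) for Ccr2, -0.26 (SE 0.16) for Ccl27a, -0.11 (SE 0.13) for Ackr3 and -0.38 (SE 0.47) for Ccl3, all with an adjusted p of 1.

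In brains of 26 months Cxcl12 had 42.0, 52.5 and 61.3 CPM on KD and 45.8, 54.8 and 68.2 CPM on CD. The difference between the diet effects (26 minus 12 months) was -0.60 (SE 0.15) for Cxcl12 on the log2 scale, with an unadjusted p of 0.00035 and an adjusted p of 0.97 by edgeR over all genes, and -0.51 to -0.67 over 36 alternatives. This interaction was called for 0 of 24 members in either direction, as for 0% of all genes, and DESeq2 also called 0. At an unadjusted p under 0.05, 1 member was higher (1.56% of all genes) and 2 were lower (2.96%). The higher one was Ccl27a (0.46, SE 0.21), and the lower ones were Cxcl12 and Ccl9 (-0.75, SE 0.29). The other members named by p were Ccl12 (-0.73, SE 0.54), Ccr2 (-0.67, SE 0.60) and Cx3cl1 (0.37, SE 0.37), each with an adjusted p of 1. The median was -0.03 over the 24 members and 0.00 over all genes.

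**Figure D5:**
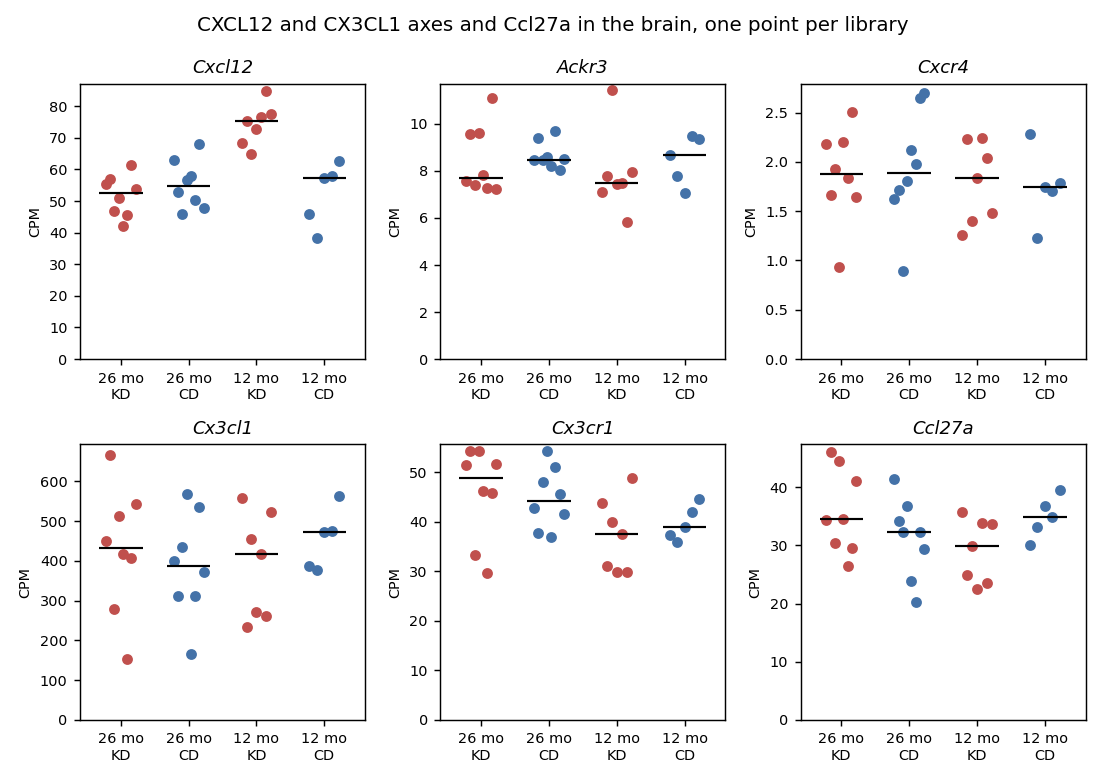
CPM in each brain for Cxcl12 and its receptors Ackr3 and Cxcr4, for Cx3cl1 and its receptor Cx3cr1, and for Ccl27a, in the groups 26-month KD, 26-month CD, 12-month KD and 12-month CD, with group medians as lines. Cxcl12 in the 7 brains of 12-month KD mice lies at 64.9 CPM or more, above the 62.7 CPM of the highest 12-month CD brain.

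Brain endothelial markers (6 genes, such as Cldn5 and Pecam1) moved the same way as Cxcl12, which vessels are known to make, and their part in the result was not tested. They summed to 218.8, 232.5 and 250.8 CPM in 12-month KD brains and 161.9, 196.4 and 214.9 CPM in 12-month CD brains, without overlap, with 0 of 6 called. In 26-month brains they summed to 167.3, 176.7 and 219.2 CPM on KD and 140.5, 207.6 and 302.5 CPM on CD. Hindbrain markers (7 genes) varied widely, at 3.28, 111.9 and 341.0 CPM in 12-month KD brains and 1.05, 8.21 and 108.6 CPM in 12-month CD brains, and their part in the result was not tested either. Other lists moved at 12 months as well. The median log2 fold change (KD over CD) was 0.25 for 5 oligodendrocyte markers, with 5 above 0, and 0.17 for the endothelial markers. It was -0.33 for 6 choroid plexus markers, with 1 above 0. The Cxcl12 receptors did not follow the ligand: Cxcr4 had 1.26, 1.83 and 2.24 CPM in 12-month KD brains and a median of 1.75 CPM in 12-month CD brains, and Ackr3 had 5.83, 7.51 and 11.4 CPM in 12-month KD brains and a median of 8.69 CPM in 12-month CD brains.

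Receptors and ligands of neutrophils and T cells were near the limit of detection in the brain, and 33 of the 57 described members did not pass the filter on low counts there. Cxcr2 had 14 counts over the 8 brains of 26-month KD mice, 29 over the 8 of 26-month CD mice, 2 over the 7 of 12-month KD mice and 0 over the 5 of 12-month CD mice. Its ligand Cxcl2 had 9, 8, 1 and 0 counts in the same groups, and Ccl20 had 7, 10, 1 and 0 counts. Cxcl13 had 36, 54, 16 and 8 counts, and Cxcl10 had 55, 48, 22 and 18 counts in that order of groups. These members were thus counted more often at 26 months than at 12 months on either diet. They did not enter the filtered fit. Without the filter, edgeR tested 58 members for age in CD brains, of which 21 were higher and 0 lower at an unadjusted p under 0.05 (17.8% and 3.06% of all genes) and 0 were called. Among the 21, Cxcr2 had an adjusted p of 0.094, Cxcl13 one of 0.11, Ccl20 one of 0.14 and Cxcl2 one of 0.18, while Cxcl10, with 0.43, was not among them. DESeq2 tested 47 members, with 16 higher and 0 lower at an unadjusted p under 0.05 (15.4% and 2.94% of all genes), and gave adjusted p-values of 0.061 for Cxcr2 and 0.072 for Cxcl13. The olfactory, vomeronasal and taste receptor genes were higher at 26 months as well, with means of 0.123, 0.108, 0.0601 and 0.0623 CPM per kb in that order of groups, and their part in these counts was not tested. Cxcr6 had medians of 3.06, 2.91, 3.28 and 2.56 CPM in the same groups, and its ligand Cxcl16 had medians of 2.72, 2.30, 1.64 and 1.46 CPM.

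Liver and brain of the CD mice of 26 months were compared in a fit scaled over both tissues, with 8 libraries each. The labels do not say whether a liver and a brain of the same number came from the same mouse. The libraries were therefore fitted without pairs. Most members tested were higher in the liver: 22 of 30 were higher and 6 lower (edgeR, adjusted p under 0.05), where 36% of the 20463 genes tested were higher and 41% lower. The libraries of the tissues did not overlap for 15 higher and 5 lower members, against 21.3% and 29.3% of all genes. The median log2 difference (liver over brain) was 2.69 over the 30 members and -0.07 over all genes. A member that passed the filter only through the tissue where it is high had to differ, so these counts describe the members and support nothing further.

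The largest differences were those of inflammatory and lymphoid ligands. Cxcl13 averaged 456.5 ± 756.5 CPM in the liver and 0.592 ± 0.549 CPM in the brain, a log2 difference of 9.57 (SE 1.5), and Cxcl9 averaged 71.1 ± 105.4 CPM in the liver and 0.273 ± 0.319 CPM in the brain (8.05, SE 0.88). Both SDs in the liver exceeded the mean, since single livers carried them. Cxcl1 was steadier, with 23.9 ± 10.5 CPM in the liver and 0.114 ± 0.0926 CPM in the brain (7.62, SE 0.44). Ccl9, Ccl2, Ccl6 and Ccr2 had log2 differences of 6.39 (SE 0.51), 6.07 (SE 0.86), 5.86 (SE 0.85) and 5.82 (SE 0.75), and Cxcl12, with 607.4 ± 275.8 CPM in the liver and 51.3 ± 7.08 CPM in the brain, one of 3.57 (SE 0.28). Further members called higher in the liver included Cxcl10, Cxcl16, Ccl5, Xcr1, Cxcr4, Ackr4, Ccl3, Ackr2, Cxcr6, Ccl12, Ccr9 and Ccr10 with log2 differences from 4.66 for Cxcl10 to 0.85 for Ccr10, beside Ccl25, whose 0.30 (SE 0.13) had an adjusted p of 0.048 and was called in 6 of 24 alternatives. Ccl12 was called in 14 of 23 alternatives, with log2 differences of 0.89 to 2.09, and Ccr10 in 22 of 23.

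Higher in the brain were Cx3cl1, Ackr1, Ccl28, Cx3cr1, Ccl27a and Ackr3. Cx3cl1 averaged 6.99 ± 6.38 CPM in the liver and 360.03 ± 124.4 CPM in the brain, a log2 difference of -5.68 (SE 0.52), and its receptor Cx3cr1 averaged 8.68 ± 8.44 CPM in the liver and 41.6 ± 6.21 CPM in the brain (-2.25, SE 0.46). Ligand and receptor were thus both higher in the brain. Cxcl12 and its signalling receptor Cxcr4 were both higher in the liver, where Cxcr4 averaged 16.5 ± 21.9 CPM, against 1.79 ± 0.539 CPM in the brain (3.20, SE 0.74), while the scavenger Ackr3 was lower in the liver with a log2 difference of -1.13 (SE 0.30). Ackr1 (-4.59, SE 0.28) shares exon bases with Cadm3, and Ccl27a (-1.99, SE 0.42) has a near-identical copy. Ccl28, which binds Ccr10 and Ccr3 in mucosal tissue, averaged 0.726 ± 0.788 CPM in the liver and 5.85 ± 1.19 CPM in the brain (-3.08, SE 0.41). Cxcl14, with 53.8 ± 74.2 CPM in the liver and 61.0 ± 9.03 CPM in the brain, and Cxcl17 were not called.

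Genes around the members were taken from 4 lists. In the liver, of 36 genes for signal transduction below the receptors, 3 lay above 0 in KD over CD with a median log2 fold change of -1.06, 0 were called by edgeR and 17 were lower at an unadjusted p under 0.05, as were 8.47% of all genes. Among the 17 were Ncf1, a subunit of the phagocyte oxidase (-2.07, SE 0.74), and Rac2, its activator (-1.96, SE 0.75). Of 15 cytokines and cytokine receptors tested, 0 were called and 9 were lower at an unadjusted p under 0.05 (median -0.65). Of 15 enzymes that process or anchor chemokines, 0 were called and 4 were lower (median -0.10), with Mmp9 and Mmp8, proteases of neutrophils, at -5.42 (SE 1.34) and -3.72 (SE 1.18). Of 9 chemokines and receptors outside the naming pattern, 4 lay above 0 and 0 were called (median -1.20). At an unadjusted p under 0.05, 1 of them was higher and 3 were lower. Pf4, the platelet chemokine, was among the lower ones at -3.09 (SE 1.21). Mmp8 and Mmp9 are also on the list of neutrophil markers.

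In the aging brain, where 1% of all genes rose and 7.81% were higher at an unadjusted p under 0.05, 6 of 35 signal transduction genes rose and 0 fell, with 16 higher at an unadjusted p under 0.05 and the median log2 fold change being 0.16. They were Fgr (2.30, SE 0.47), a kinase of myeloid cells, Pik3r5 (0.72, SE 0.18), Dock2 (0.71, SE 0.13), Vav1 (0.70, SE 0.18), Ncf1 (0.63, SE 0.15) and Elmo1 (0.25, SE 0.06), of which Dock2 and Elmo1 form the exchange factor that activates Rac in migrating leukocytes. Of 8 genes outside the naming pattern, Gpr35 (1.24, SE 0.27) and Cmklr1 (0.65, SE 0.13), the chemerin receptor, rose and 0 fell. Mmp12, the macrophage elastase, rose by 4.04 (SE 0.62) among 13 enzymes, and of 12 cytokines and their receptors 0 rose or fell, with 7 higher at an unadjusted p under 0.05. In the comparisons of diet in the brain, 0 genes of the 4 lists were called at either age.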

How the data were processed

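RNA of 16 livers and 28 whole brains had been sequenced by the authors after ribosomal RNA depletion; reads were trimmed with Trimmomatic, aligned to GRCm38 with STAR and counted with RSEM, in versions not given in the sources used here. The values deposited by the authors are unnormalized counts of reads for each gene. No library was left out and 0 columns belonged to other samples.

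Counts were tested in R 4.3.3 with edgeR 4.0.16: filterByExpr, TMM scaling, the quasi-likelihood F test and Benjamini-Hochberg adjustment over all genes tested, at 0.05. The livers formed one fit, the brains another with a group per age and diet, and the 26-month CD livers and brains a joint fit. CPM are TMM-scaled, and each SE is the log2 fold change divided by the square root of F. Of the members described, 40 in the liver, 24 in the brain and 30 in the joint fit passed the filter.

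The members and lists were chosen with earlier results of these data known. Members named with fold changes are those called in a comparison and the 6 with the smallest p in each; those named for their level are the 8 highest per kb in each tissue; known ligand and receptor pairs are given with values, and other members where a count or a library turned on them. The values of 1 member are not reported here, though the counts over members include it. Cell types were read from 17 marker lists, and those without a value in the text are not reported here.

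Alternatives were DESeq2 1.42.0, RLE factors, library totals alone, the compared groups alone, robust dispersion, no filter, a minimum of 10 counts per library, no libraries high in Gm10800 (over 0.01% of counts in the liver, 0.5% in the brain), each library left out and a replicate block. The log2 CPM of 1774 olfactory, vomeronasal and taste receptor genes as a covariate was added after seeing the data. In data simulated for each comparison, the fit recovered 40 of 100 genes shifted by 1 on the log2 scale and 77 of 100 shifted by 2 in the liver, and 74 and 94 for aging in the brain. The shifted genes were drawn at random from all genes tested, and genes were simulated independently. These rates therefore do not describe members near the filter, or livers in which many members vary together. Python 3.11.15, pandas 2.3.3, numpy 2.4.6, matplotlib 3.10.9 and the R package data.table (1.17.8) were also used. Promoter letters are from RefSeq (GRCm38.p6).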

Additional observations from a re-analysis of the deposited data

Results flagged for a closer look

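Among 60 groups of libraries tested, 2 held a library far from the others on the scale of log2 of CPM plus 0.1, and chance flags about 1 in 20 groups. Ccl24 stood at 38.1 CPM in KD liver replicate 12, where the next KD liver had 2.02 CPM. Ccl9 stood at 0.607 CPM in 26-month KD brain replicate 11, the lowest of its group, where the next brain had 1.10 CPM.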

How the results depend on the processing

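Of the log2 fold changes of named members, 899 kept their direction and side of the threshold when 1 library was left out and 44 lost the call, and under the other settings 419 kept both and 23 lost the call; none reversed. A minimum of 10 counts per library removed Ccl3, Ccl6 and Ccl9, the 3 members that rose with age, before testing. It therefore cannot decide whether their calls hold. These 3 members became 0 with no filter, 0 with the compared groups alone and 1 with the receptor genes as a covariate. They became 1 without the libraries high in Gm10800, and 0 to 3 with 1 library left out. A replicate block on the shared numbers 1, 4 and 7 gave 0. Same-numbered brains had correlations of 0.25, -0.29 and -0.12. The labels do not say what a shared number means, and these few pairs cannot show whether it marks a batch. Between liver and brain, the 22 members higher in the liver became 36 by DESeq2, 36 with no filter, 8 with at least 10 counts in every library and 20 to 25 with 1 library left out; the replicate block gave 20 higher and 6 lower, and same-numbered samples had correlations of -0.04 to 0.13 with 2 of 8 highest for their own number. Counts over all genes moved more: in the liver 0 became up to 117 with 1 library left out and up to 99 in other settings, and the 221 higher and 57 lower genes for aging became 147 to 309 genes in all with 1 library left out and 13 to 844 in other settings. For liver against brain the 7364 higher and 8396 lower genes became 9524 to 20808 in all in other settings. The causes were not tested, except that a stricter filter tests fewer genes. Depth limits the brain, where Ccl3 rests on 22 counts at 12 months.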
